A study of Mus musculus with 4 samples.

Results

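The genes described are the 10 acute phase protein genes *Apcs*, *Crp*, *Saa1*, *Saa2*, *Saa3*, *Saa4*, *Orm1*, *Orm2*, *Orm3* and *Hp*, taken by symbol out of the 22367 protein-coding genes that the mm9 annotation places on chromosomes 1 to 19, X and Y. They are grouped by what their proteins do, but the group was chosen with earlier results of these data known. The study itself lists *Apcs* among the genes recruited to the nuclear periphery in its knockout, with lower expression in knockout liver. What was measured is whether each gene lay in DNA that contacts the nuclear lamina in mouse hepatocytes with and without the nuclear envelope (NE) protein Tm7sf2, also called NET47, which is a sterol reductase as well.

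The acute phase response is the change in plasma protein production that the liver makes during inflammation and injury. Cytokines of the interleukin-6 and interleukin-1 families reach the hepatocyte and act through STAT3, NF-kB and C/EBP transcription factors, together with glucocorticoid, to raise transcription of positive acute phase proteins. In the mouse, serum amyloid P (*Apcs*) and the serum amyloid A proteins of *Saa1* and *Saa2* respond strongly, whereas C-reactive protein (*Crp*), a main marker in human plasma, responds weakly. Genes at the nuclear lamina are in general less often transcribed than genes in the nuclear interior, which is why the position of inducible liver genes is of interest.

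DamID was performed on hepatocytes isolated from adult WT and *Tm7sf2*-/- (KO) mice on a C57BL/6 background. The cells were cultured in serum-free medium with dexamethasone, insulin and epidermal growth factor, so that both genotypes were exposed to a glucocorticoid. Cells of both genotypes were transduced with lentivirus for Dam-LaminB1, which methylates GATC sites near the lamina, or for Dam only, which measures how accessible the DNA is. This gave 4 libraries, 1 per construct and genotype, each made from DNA that had been pooled over 4 animals. Without replicates, no spread between animals can be given, and no test was made between WT and KO. The deposited lists hold intervals without a signal or read number, so the depth behind a single interval is unknown, the hepatocyte label could not be checked against marker genes, and expression of the 10 genes was not analysed here. No cytokine or other inflammatory stimulus is named for these cells.

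Lamina-associated domains (LADs) are the intervals where the Dam-LaminB1 signal exceeded the Dam only signal. The WT list has 8107 LADs and the KO list 16076, covering 55.4% and 56.1% of the genome, and no LAD is shorter than 10 kb. According to the study, fewer usable reads were obtained for the KO than for the WT. Differential regions (DRs) are stretches of at least 10 kb that lie in a LAD of 1 genotype only. A gene is PI (periphery to interior) where its span touches a WT-only DR, IP (interior to periphery) where it touches a KO-only DR, AMB where it touches both, PP where it lies in LADs of both genotypes without a DR, and II in all other cases.

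The promoters of the genes at the center of the comparison are shown first. These are the 250 bases before the annotated start of *Crp* and *Apcs*, the members that changed class, of *Saa1* and *Saa2*, whose sequences are nearly identical, and of *Orm1* and *Orm2*, whose nearest LAD was inside a nearby gene in KO and much farther away in WT. Sequences are from the NCBIM37 assembly (mm9), and each is written 5′ to 3′ on the strand of the gene. Capitals mark matches on either strand to TTCNNNGAA, a STAT motif, or to TTNNGNAA, a short C/EBP motif.
*Crp* promoter, chr1:174627937-174628186, forward strand: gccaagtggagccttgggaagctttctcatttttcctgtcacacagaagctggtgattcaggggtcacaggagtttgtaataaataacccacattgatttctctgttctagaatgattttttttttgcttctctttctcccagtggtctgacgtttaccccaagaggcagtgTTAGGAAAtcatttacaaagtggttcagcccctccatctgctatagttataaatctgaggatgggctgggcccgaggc
*Apcs* promoter, chr1:174825186-174825435, reverse strand: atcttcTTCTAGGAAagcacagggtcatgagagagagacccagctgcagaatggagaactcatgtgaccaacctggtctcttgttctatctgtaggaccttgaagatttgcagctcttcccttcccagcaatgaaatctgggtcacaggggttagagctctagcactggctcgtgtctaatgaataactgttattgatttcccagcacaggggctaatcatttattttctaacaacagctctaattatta
*Saa1* promoter, chr7:53998351-53998600, reverse strand: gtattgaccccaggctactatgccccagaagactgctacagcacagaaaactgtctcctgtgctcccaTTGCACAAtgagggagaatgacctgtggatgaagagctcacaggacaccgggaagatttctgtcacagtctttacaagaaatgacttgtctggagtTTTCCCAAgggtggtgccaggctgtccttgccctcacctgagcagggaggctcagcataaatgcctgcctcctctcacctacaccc
*Saa2* promoter, chr7:54006953-54007202, forward strand: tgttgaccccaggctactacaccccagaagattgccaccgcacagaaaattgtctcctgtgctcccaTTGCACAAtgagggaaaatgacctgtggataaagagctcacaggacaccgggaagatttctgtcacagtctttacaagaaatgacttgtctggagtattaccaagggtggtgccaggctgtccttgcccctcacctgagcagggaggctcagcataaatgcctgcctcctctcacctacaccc
*Orm1* promoter, chr4:63005344-63005593, forward strand: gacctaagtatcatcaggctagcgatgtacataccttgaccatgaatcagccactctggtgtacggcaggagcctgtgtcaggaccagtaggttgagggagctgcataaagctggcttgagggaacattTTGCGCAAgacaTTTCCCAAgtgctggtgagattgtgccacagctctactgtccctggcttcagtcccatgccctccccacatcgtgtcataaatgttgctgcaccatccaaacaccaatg
*Orm2* promoter, chr4:63023233-63023482, forward strand: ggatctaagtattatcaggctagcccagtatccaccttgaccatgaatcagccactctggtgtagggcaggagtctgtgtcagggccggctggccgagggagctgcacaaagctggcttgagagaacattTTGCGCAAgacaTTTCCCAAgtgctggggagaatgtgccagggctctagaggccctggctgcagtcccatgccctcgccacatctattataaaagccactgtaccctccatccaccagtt

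The capitals in the *Apcs* promoter are its STAT match, with the first base at position -244 counted back from the gene start, and 6.83% of 22362 promoters of the same length hold such a match. No other member had one. The C/EBP motif is short and 35.4% of all promoters hold it. It was found in 8 members, which are *Crp* at -78, the 4 *Saa* genes and the 3 *Orm* genes, and not in *Apcs* or *Hp*. The promoters of *Saa1* and *Saa2* were 95.6% identical and those of the *Orm* genes 84.3 to 89.4%. The 8 promoters are therefore not independent, and the count was not tested. *Saa3* had 4 such matches, the highest number among the members. The matches at -182 in *Saa1* and -183 in *Saa2* have the same letters, whereas the match at -86 in *Saa1* has no counterpart in *Saa2*. *Orm1* and *Orm2* share a pair of matches, at -121 and -109 in *Orm1* and at -120 and -108 in *Orm2*. The letters GGANTTTCC, for NF-kB, and TGTTTGC, for FOXA, were in none of the 10 member promoters and in 1.11% and 4.0% of all promoters. Only these strings were searched, and other spellings of either site would have been missed. A match is a string of letters, and whether any factor binds there was not measured. The motifs were searched on both strands, and a position holding overlapping matches was counted for each motif separately.

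Of the 10 genes, 2 were IP and 8 were II, and none was PI, AMB or PP. The IP genes were the pentraxin genes *Crp* and *Apcs*. Among all 22367 protein-coding genes 17.1% were IP, 5.43% PI, 2.96% AMB, 17.9% PP and 56.6% II. The members are short, with spans from 1.09 kb for *Apcs* to 4.53 kb for *Saa4*, so they are best read against other short genes. Among the 8861 genes with spans under 10 kb, 817 (9.22%) were IP, 2710 (30.6%) PP and 5010 (56.5%) II. With 10 genes at 4 loci, and neighboring members in the same intervals, these counts describe the members and were not tested.

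**Figure D1:**
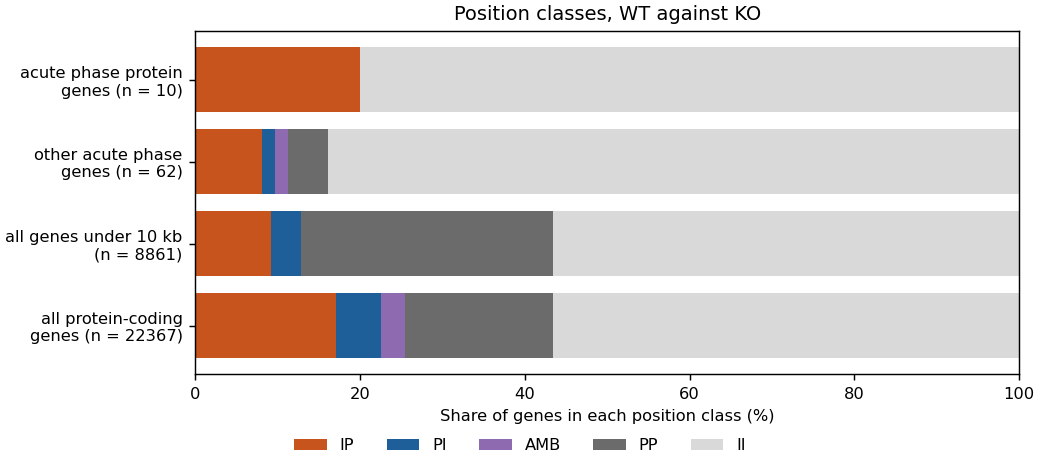
Share of genes (%, horizontal axis) in the position classes IP, PI, AMB, PP and II for the 10 acute phase protein genes, 62 other acute phase genes, all 8861 genes under 10 kb and all 22367 protein-coding genes. The members fall into IP (2 genes) and II (8 genes) only, whereas PP takes up a visible share of the short genes and of all genes.

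*Crp* and *Apcs* encode the short pentraxins, ring-shaped plasma proteins that bind phosphocholine, microbial surfaces and nuclear debris and that engage complement and Fc receptors. Each gene was wholly outside LADs in WT and wholly inside a LAD in KO, both exons and the promoter included. *Crp* (ENSMUSG00000037942.3, chr1:174628187-174630097, plus strand, 2 exons) went from 0% of its 1.91 kb span in LADs in WT to 100% in KO. *Apcs* (ENSMUSG00000026542.5, chr1:174824093-174825185, minus strand, 2 exons) likewise went from 0% of its 1.09 kb to 100%.

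In WT both pentraxin genes nevertheless lay close to the lamina-associated DNA, in short gaps between LADs. The gap that held *Crp* was 16.2 kb long (chr1:174624787-174640992), with 39 GATC sites, and the nearest WT LAD ended 3.40 kb before the gene. The gap that held *Apcs* was 17.6 kb long (chr1:174821996-174839547), with 44 GATC sites, and its flanking LAD of 99.3 kb lay on the side of the 3′ end of the gene, so that the transcription start was 3.19 kb away. The other border of the gap lay 10.9 kb beyond *Crp* and 14.4 kb beyond *Apcs*. The gaps are thus somewhat shorter than the typical WT gap, since the median of the 8086 gaps between WT LADs was 22.9 kb.

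The 4 borders of these gaps are the sequence positions at which the calls for *Crp* and *Apcs* turned from LAD to non-LAD in WT. Each fell within a GATC site, the recognition sequence of Dam and of *DpnI*, here in capitals, as did 98.9% of all WT LAD borders and 99.5% of all KO LAD borders.
lower border of the WT gap at *Crp*, chr1:174624756-174624815, forward strand: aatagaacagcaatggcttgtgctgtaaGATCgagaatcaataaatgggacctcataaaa
higher border of the WT gap at *Crp*, chr1:174640962-174641021, forward strand: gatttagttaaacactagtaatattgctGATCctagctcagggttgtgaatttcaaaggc
lower border of the WT gap at *Apcs*, chr1:174821965-174822024, forward strand: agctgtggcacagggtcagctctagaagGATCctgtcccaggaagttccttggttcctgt
higher border of the WT gap at *Apcs*, chr1:174839517-174839576, forward strand: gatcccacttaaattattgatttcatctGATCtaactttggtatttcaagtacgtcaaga

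In KO the gaps at *Crp* and *Apcs* were closed along their whole length. Both gaps are KO-only DRs from end to end. The KO LAD over *Crp* was 114 kb long (chr1:174568070-174681647), and 68.3% of it was already in WT LADs, of which it joined 2. *Crp* lay 60.1 kb from its start and 51.5 kb from its end, away from either border. The KO LAD over *Apcs* was 638 kb long (chr1:174729135-175367568), with 91.2% in 4 WT LADs, and *Apcs* lay 95.0 kb from its start and 542 kb from its end. At each gene the difference between the genotypes was therefore a short closed gap within a stretch that was mostly LAD in both. The KO LAD over *Crp* also took in a longer KO-only DR of 19.8 kb at its lower end (chr1:174568070-174587825). The call rests on gaps of this length being kept apart, since with LADs joined across gaps of up to 20 kb, a setting added after the data had been examined, or of up to 50 kb both genes were PP, and with DRs of at least 20 kb neither was IP.

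How often WT gaps of this length were closed in KO was counted across the genome, with the length range of 10 to 20 kb chosen after the lengths of the gaps at *Crp* and *Apcs* had been seen. Of 2476 such gaps, 1192 (48.1%) lay wholly within 1 KO LAD. Of 137 protein-coding genes wholly inside such a gap, 90 (65.7%) were wholly in a KO LAD. Closed gaps were thus common for genes placed as *Crp* and *Apcs* were, and nothing particular to the pentraxin genes follows from these counts.

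**Figure D2:**
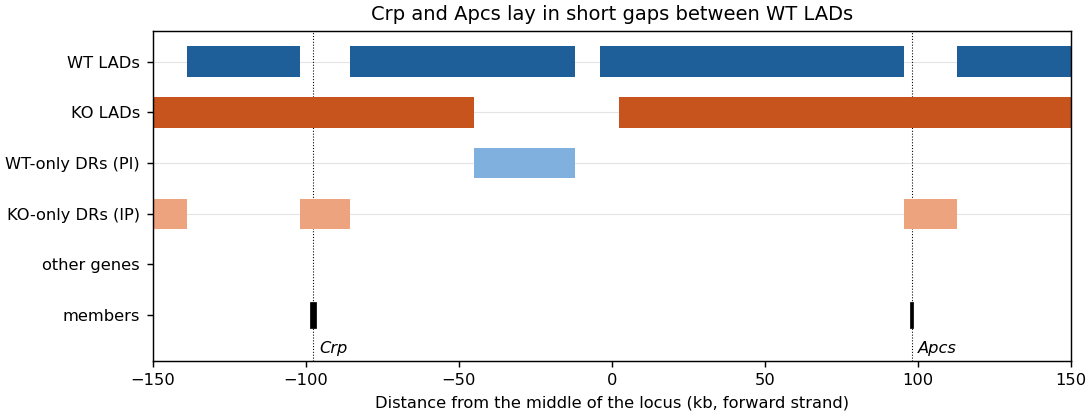
WT LADs, KO LADs, WT-only and KO-only DRs and genes within 150 kb of the middle of the pentraxin locus (horizontal axis, kb). *Crp* (left dotted line) and *Apcs* (right dotted line) sit in gaps of 16.2 and 17.6 kb between WT LADs that are covered by KO LADs, while a KO gap of 47.5 kb opens between the genes.

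Between the pentraxin genes the direction was the opposite. The 194 kb that separate the spans of *Crp* and *Apcs* hold no other protein-coding gene, and LADs covered 89.1% of them in WT against 75.5% in KO. A KO gap of 47.5 kb with 100 GATC sites (chr1:174681648-174729134) divided the *Crp* LAD from the *Apcs* LAD, and it took in a WT-only DR of 33.0 kb (chr1:174681648-174714598). The part in WT-only DRs came to 17.0% of the stretch and the part in KO-only DRs to 6.70%. The locus as a whole, from *Crp* to *Apcs*, was therefore less covered by LADs in KO (75.9%) than in WT (87.8%), although both of its genes were IP.

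The genes around the pentraxins divided by side. The nearest protein-coding gene on the *Crp* side was *Dusp23*, a small phosphatase gene 65.1 kb away, which was II. On the *Apcs* side the nearest was the olfactory receptor gene *Olfr16* at 61.7 kb, which was PP. The KO LAD over *Apcs* overlapped 11 other genes. Of these, 10 were PP, namely the olfactory receptor genes *Olfr16*, *Olfr1408*, *Olfr1406*, *Olfr218*, *Olfr1404* and *Olfr418-ps1*, the high-affinity IgE receptor chain *Fcer1a*, the Duffy chemokine receptor *Darc*, the cell adhesion gene *Cadm3* and *Gm11062*. The DNA sensor gene *Aim2* at the far end was AMB, with 15.2% of its annotated span in WT-only and 24.8% in KO-only DRs. No gene but *Crp* overlapped its KO LAD or its DR, and no gene but *Apcs* overlapped the DR at *Apcs*. Within 500 kb of the locus, 6 of 27 other genes were IP, none PI, 1 AMB, 11 PP and 9 II. The shares among all protein-coding genes were 17.1% IP, 5.43% PI, 2.96% AMB, 17.9% PP and 56.6% II. Neighbors can share a DR, and these counts were not tested. All 6 IP genes were on the *Crp* side, and of them *Slamf9*, *Slamf8* and *Vsig8*, which encode immunoglobulin superfamily receptors, were wholly in KO-only DRs as the pentraxins were. These 3 genes and the rest of the 500 kb window were inspected after the values had been seen.

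The LAD share around the pentraxins was higher in KO at most of the distances examined. In the 20 kb centered on *Crp* it was 28.2% in WT and 100% in KO, and in the 20 kb centered on *Apcs* 36.8% and 100%. In 100 kb the values were 75.1% and 100% for *Crp* and 82.4% and 100% for *Apcs*. At 200 kb the order turned for *Crp*, with 66.2% in WT and 62.0% in KO, because the KO gap between the genes came into the window, whereas *Apcs* had 86.8% and 97.8%. With 500 kb on each side of the locus, LADs covered 60.5% in WT and 71.0% in KO, a difference of 10.5 percentage points, for a chromosome 1 that was at 61.2% and 63.5%.

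The serum amyloid A genes encode small apolipoproteins that travel on high-density lipoprotein during inflammation. *Saa1* and *Saa2* are the main hepatic forms, *Saa3* is made in several tissues, and *Saa4* is expressed without induction. All 4 lie within 42.3 kb of chromosome 7, in the order *Saa3* (ENSMUSG00000040026.7, chr7:53967368-53971046), *Saa4* (ENSMUSG00000040017.7, chr7:53983387-53987913), *Saa1* (ENSMUSG00000074115.3, chr7:53995871-53998350) and *Saa2* (ENSMUSG00000057465.4, chr7:54007203-54009684), with *Saa2* on the plus strand and the others on the minus strand. Each has 4 exons. All 4 genes were II, with 0% of their spans in LADs of either genotype, and neither genotype had a LAD within 100 kb of the locus.

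The nearest WT LAD was 206 kb from *Saa3*, 222 kb from *Saa4*, 234 kb from *Saa1* and 246 kb from *Saa2*. In KO the distances were 184 kb, 200 kb, 212 kb and 214 kb, in the same order of genes. The nearest LAD was thus closer in KO, with a difference (KO minus WT) of -22.1 kb for *Saa3*, *Saa4* and *Saa1* and of -31.6 kb for *Saa2*. For the first 3 genes the difference rests on a single KO LAD of 10.5 kb (chr7:53773062-53783555), near the shortest length in the lists, placed next to a WT LAD of 12.7 kb (chr7:53748771-53761427). Both lie within *Sergef*, a gene for a secretion-regulating guanine nucleotide exchange factor that was IP and had a LAD share of 13.1% in WT and 37.3% in KO. For *Saa2* the nearest KO LAD was on the other side, 15.3 kb long (chr7:54223850-54239124), and touched *Gm9999*, which was also IP.

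The neighbors that flank the *Saa* genes directly, *Saal1* 1.32 kb on the lower side and *Hps5* 6.15 kb on the higher side, were II. The LAD-free stretch around the locus was 612 kb long in WT and 440 kb in KO. Outside it the difference was one-sided. The 500 kb flanks held 9 KO-only DRs and 0 WT-only DRs, and the LAD share with these flanks was 12.5% in WT and 34.6% in KO, a difference of 22.1 percentage points and the highest of the 4 loci. On the whole of chromosome 7 the order was the opposite, with 52.7% in WT and 50.7% in KO. Of the 20 other genes in the window 7 were IP, 2 PP and 11 II, beside 17.1%, 17.9% and 56.6% of all protein-coding genes. Neighbors can share a DR, and these counts were not tested.

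**Figure D3:**
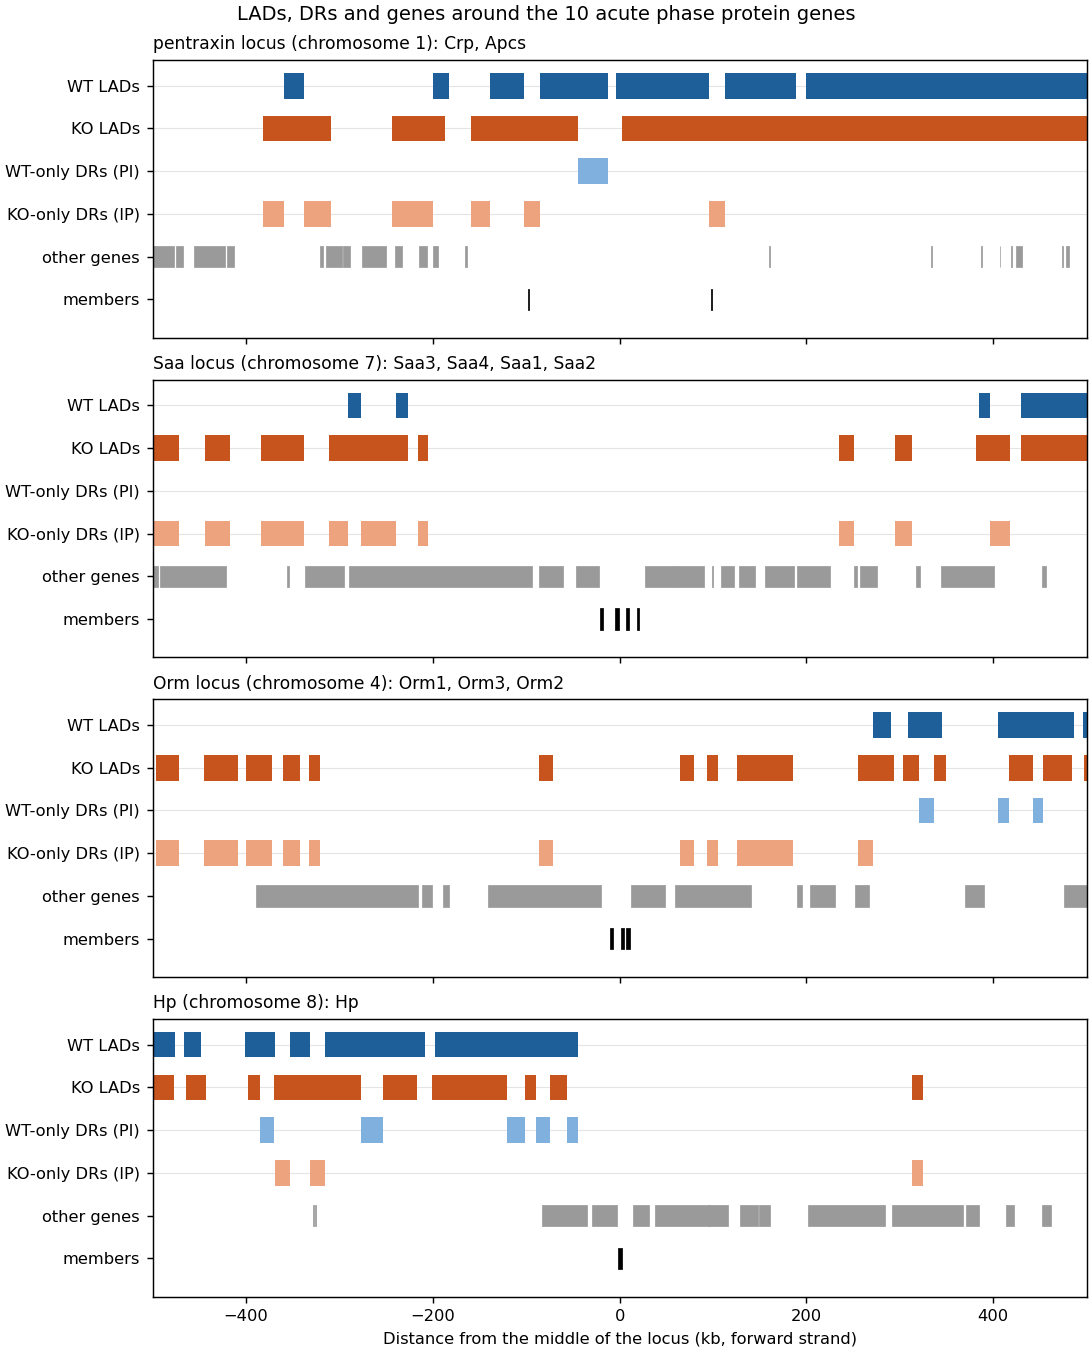
LADs and DRs of WT and KO, other protein-coding genes (grey) and members (black) within 500 kb of the middle of each of the 4 loci (horizontal axis, kb). The *Saa* and *Orm* genes lie in stretches without WT LADs. Short KO LADs interrupt both stretches on both sides, closer to the genes at *Orm* than at *Saa*. The pentraxin genes lie among LADs, and *Hp* lies next to a WT LAD that is divided into 3 KO LADs.

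*Orm1*, *Orm2* and *Orm3* encode orosomucoids, or alpha-1-acid glycoproteins, which are heavily glycosylated plasma proteins of the lipocalin family that bind drugs and dampen immune responses. They lie within 21.3 kb of chromosome 4 on the plus strand, with 6 exons each, in the order *Orm1* (ENSMUSG00000039196.2, chr4:63005594-63009197), *Orm3* (ENSMUSG00000028359.4, chr4:63017196-63020545) and *Orm2* (ENSMUSG00000061540.3, chr4:63023483-63026912). All 3 genes were II, with no LAD over any exon in either genotype.

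The distance of the *Orm* genes to the nearest LAD was several times shorter in KO than in WT. In WT it lay 279 kb from *Orm1*, 267 kb from *Orm3* and 261 kb from *Orm2*, at a LAD of 19.5 kb (chr4:63287740-63307230) that overlaps no protein-coding gene. In KO it lay 60.2 kb from *Orm1*, 60.2 kb from *Orm3* and 53.8 kb from *Orm2*, so that the WT distance was 4.63, 4.44 and 4.84 times the KO distance. The difference (KO minus WT) was -218 kb for *Orm1* and -207 kb for each of the others. The nearest KO LAD of *Orm1* was 15.1 kb long (chr4:62930286-62945404) and lay inside the fibrillar collagen gene *Col27a1*. That of *Orm2* and *Orm3*, 14.8 kb long (chr4:63080748-63095597), lay inside *Whrn*, the whirlin scaffold gene of hair cells and photoreceptors. Both of these LADs were KO-only DRs from end to end. With LADs of at least 20 kb the difference was -183 kb for each *Orm* gene, and it was -241, -208, -186 and -163 kb for *Saa3*, *Saa4*, *Saa1* and *Saa2*, so the order of the loci depends on counting the short LADs.

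The LAD-free stretch around the *Orm* genes was 1466 kb long in WT and 135 kb in KO. With 100 kb on each side of the locus the LAD share was 0% in WT and 19% in KO, all of it in 3 KO-only DRs. With 500 kb on each side it was 15.0% and 35.0%, with 10 KO-only and 3 WT-only DRs. For comparison, chromosome 4 as a whole had 52.8% in WT and 54.0% in KO. *Col27a1*, which ends 9.57 kb before *Orm1*, was IP with 12.5% of its span in KO LADs. *Akna*, an AT-hook protein gene 1.25 kb beyond *Orm2*, was II. *Whrn* was IP with 52.1% in KO LADs. *Ambp*, the gene of the plasma protein alpha-1-microglobulin and of bikunin, lies 190 kb from *Orm1* and was II, and it was named after its values had been seen. Of the 11 other genes in the window 4 were IP, 1 PP and 6 II, beside 17.1%, 17.9% and 56.6% of all protein-coding genes. These counts were not tested either.

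*Hp* encodes haptoglobin, which binds the hemoglobin that is released from lysed red cells. It was the only member whose nearest LAD was farther away in KO. *Hp* (ENSMUSG00000031722.9, chr8:112099030-112103072, minus strand, 5 exons) was II, with 0% of its span in LADs of either genotype. The nearest WT LAD was 42.2 kb away (chr8:111903746-112056874, 153 kb long) and the nearest KO LAD 54.2 kb away (chr8:112026439-112044813, 18.4 kb long), a difference of 12.1 kb.

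At *Hp* the WT LAD of 153 kb corresponded to 3 shorter KO LADs of 80.0, 12.4 and 18.4 kb, and the stretches lost between and beyond them were WT-only DRs of 18.8, 14.8 and 12.1 kb. The last of these is the one that moved the border away from *Hp*. The DRs of 14.8 and 12.1 kb and the nearest LADs all overlapped *Pmfbp1*, a testis-expressed gene that was PI and had a LAD share of 80.1% in WT and 37.8% in KO. The direct neighbors of *Hp* were the splicing factor gene *Txnl4b* at 1.08 kb and the pyrimidine synthesis gene *Dhodh* at 12.2 kb, and both were II. The LAD share within 100 kb of *Hp* was 28.3% in WT and 15.1% in KO, and within 500 kb it was 35.5% and 31.0%, whereas chromosome 8 as a whole had 53.1% and 53.8%. Of the 15 other gene records in the window 3 were IP, 1 PI and 11 II, beside 17.1%, 5.43% and 56.6% of all protein-coding genes. Records with the same symbol were counted separately, and 1 symbol occurs more than once among the IP records. The other end of the LAD-free stretch moved the other way, through a KO LAD of 11.8 kb in *Phlpp2*, a phosphatase gene named after its values had been seen, so that the stretch was 603 kb long in WT and 369 kb in KO.

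**Figure D4:**
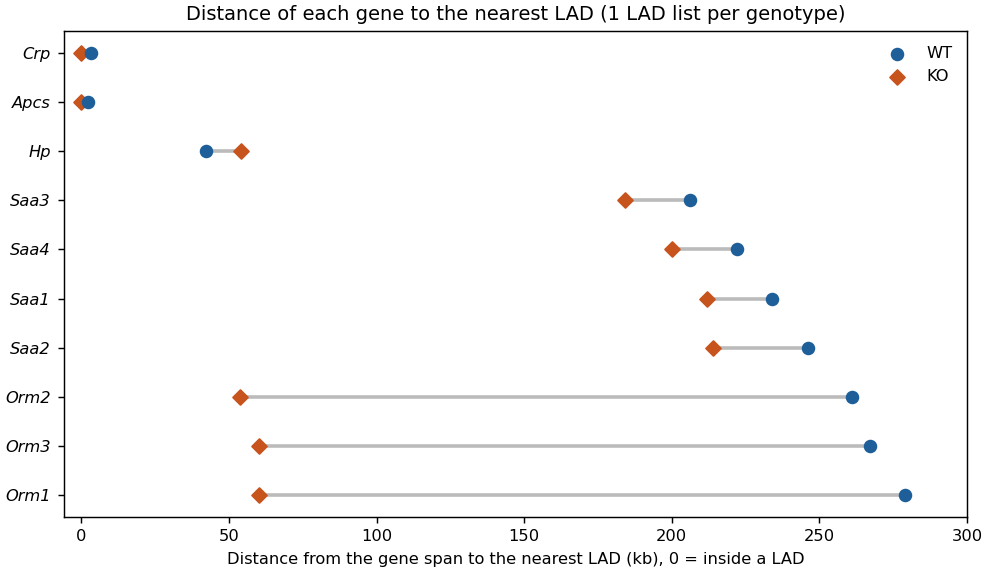
Distance in kb from the span of each of the 10 genes to the nearest LAD (horizontal axis), with circles for WT and diamonds for KO, each from 1 LAD list. *Crp* and *Apcs* reach 0 in KO, the *Saa* genes keep distances of 184 kb or more, the *Orm* genes go from 261 to 279 kb in WT to 53.8 to 60.2 kb in KO, and *Hp* is farther away in KO.

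Of the 8 II members, 7 had their nearest LAD closer in KO and 1 farther. Among all 12518 protein-coding genes outside LADs in both genotypes, 83.6% had it closer in KO and 16.0% farther, so the members' share is near that background. The median distance of the 8 members was 240 kb in WT and 122 kb in KO, against 401 kb and 119 kb for the 12518 genes. The 4 *Saa* genes share 1 LAD-free stretch and the 3 *Orm* genes another, so the 8 genes stand for 3 stretches. LAD-free stretches were in general shorter in KO, with a median of 589 kb over 13037 genes outside KO LADs and of 1676 kb over 15562 genes outside WT LADs. The number of LADs and the read depth differed between the genotypes in the lists used, and their part in these distances was not tested.

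The surroundings of the members, taken as the LAD share of windows centered on each gene, separated the 2 pentraxin genes from the rest in both genotypes. In windows of 100 kb the *Saa* and *Orm* genes had 0% in WT and in KO, *Hp* had 5.82% and 0%, and the median of all protein-coding genes was 0% and 13.1%. In windows of 1000 kb the *Saa* genes had 9.01 to 12.9% in WT and 32.1 to 33.5% in KO. The *Orm* genes had 13.8 to 15.2% and 34.4 to 35.1%, and *Hp* had 35.4% and 30.9%. The median of all genes was 23.2% and 28.8%. At this scale the *Saa* and *Orm* genes were thus below the median in WT and above it in KO, while *Crp* with 52.9% and 65.4% and *Apcs* with 72.4% and 83.9% were above it in both. *Hp* was above it in both too, by less.

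**Figure D5:**
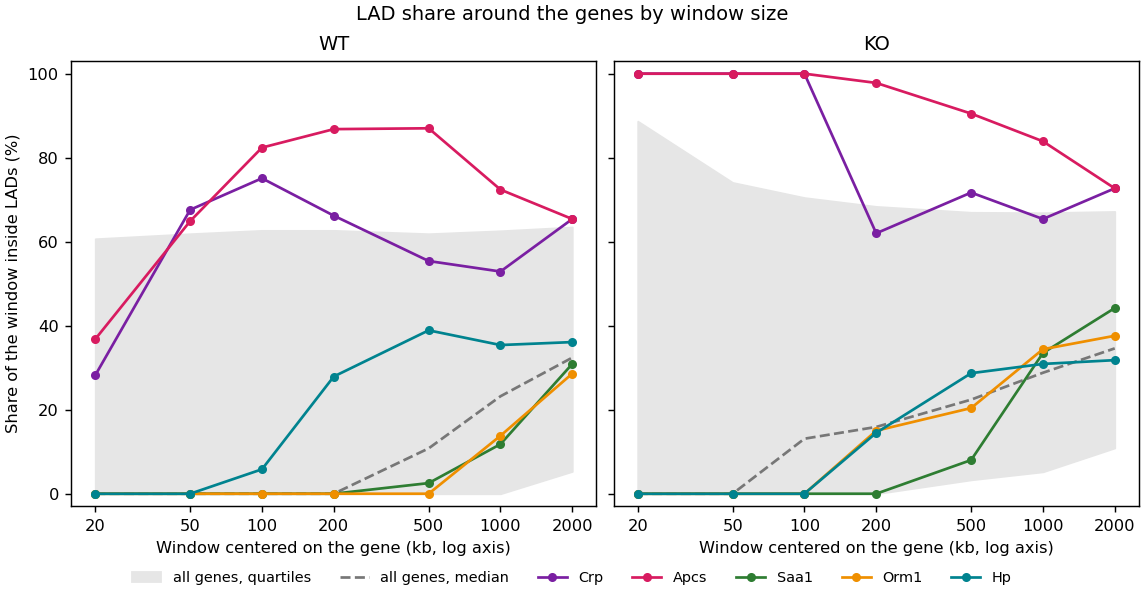
Share of a window centered on the gene that lies in LADs (vertical axis, %) against the window length (horizontal log axis, kb), for *Crp*, *Apcs*, *Saa1*, *Orm1* and *Hp*, with the median and quartiles of all protein-coding genes, WT on the left and KO on the right. *Crp* and *Apcs* are at 100% up to 100 kb in KO, and *Saa1* and *Orm1* stay at 0% up to 200 kb and 500 kb in WT.

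The members also differed in base composition, a feature the choice of genes did not use. The G+C content of the span was 41.8% for *Crp* and 42.8% for *Apcs*, and from 48.0% (*Saa3*) to 54.4% (*Saa2*) for the 8 II members. Among genes under 10 kb the median was 48.5% for IP genes (quartiles 43.8 and 53.2%), 43.0% for PP genes and 51.6% for II genes (quartiles 47.7 and 54.9%). *Crp* and *Apcs* were thus below the lower quartile of short IP genes and near the PP median, and the 8 others were within the quartiles of short II genes. Sites for Dam were present in every member, from 4 GATC sites in *Apcs* to 13 in *Saa3* and *Saa4*. Per kb of span the highest values were those of *Crp* (5.23) and *Apcs* (3.66), and the lowest was that of *Orm1* (1.94).

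Sequence shared between members limits how finely reads can be placed. *Saa1* and *Saa2* were 96.9% identical over their aligned spans, 95.6% over their promoters and 92.6% over their proteins of 122 residues, and 46.8% and 46.1% of the 32-base words in their spans occur again elsewhere in the genome. The *Orm* genes were 87.6 to 87.8% identical over their spans and 77.2 to 81.2% over their proteins, with 15.3 to 18.2% repeated words. *Crp* and *Apcs* were 68.0% identical over their aligned spans and 48.2% over 220 aligned residues. The word was repeated for 3.67% of positions in *Crp* and for 0 in *Apcs*. In the KO-only DRs repeated words made up 9.85% at *Crp* and 6.44% at *Apcs*, and in the 4 WT LADs beside them 20.4 to 27.8%. How reads with several placements were treated is not given in the sources used here, and its part in the calls was not tested.

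The wider acute phase system was followed through 63 other genes in 6 lists, which were drawn up from general knowledge with earlier results of these data known. All but *Cebpd* were located among the protein-coding genes, and of these 62 genes 5 were IP, 1 PI, 1 AMB, 3 PP and 52 II. The IP share was 8.06% and the II share 83.9%, beside 17.1% and 56.6% for all protein-coding genes.

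The genes of the other hepatic acute phase proteins nearly all lay outside LADs in both genotypes. Of 22 other positive acute phase genes 21 were II, beside 56.6% of all protein-coding genes. They include the heme scavenger gene *Hpx* (nearest LAD 55.4 kb in WT and 2.61 kb in KO), the copper carrier gene *Cp* (12 and 27.4 kb) and the siderophore-binding lipocalin gene *Lcn2* (3895 and 262 kb). In the 100 kb centered on the gene *Hpx*, *Fga*, *Fgb* and *Il1rn* were IP, *Cp* and *Mbl2* PI and *Fgg* PP. Some of the 22 genes are neighbors, as the fibrinogen genes *Fga*, *Fgb* and *Fgg* are, and the counts were not tested. The remaining gene of the 22, *Mbl1* for a mannose-binding lectin, was PI. It had 62.9% of its 7.50 kb span and 3 of its 5 exons in a WT LAD, the transcription start included, and 0% in KO LADs, with the nearest KO LAD 18.2 kb away. All 7 negative acute phase genes, whose plasma proteins fall during the response, were II, beside 56.6% of all protein-coding genes. Among them were *Alb* for albumin (353 and 280 kb), *Ttr* for transthyretin (213 and 142 kb) and *Trf* for transferrin (182 and 173 kb).

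Of the 5 other pentraxin genes, 1 was IP and 4 were II, beside 17.1% and 56.6% of all protein-coding genes. The IP gene was the long pentraxin gene *Ptx3*. LADs covered none of its 5.92 kb in WT and all of it, 3 of 3 exons, in KO, and its nearest WT LAD was 5.34 kb away. It was PP with LADs joined across gaps of up to 50 kb. *Ptx3* is made mainly outside hepatocytes. The other 4 were II, among them *Ptx4* (nearest LAD 1585 kb in WT and 388 kb in KO), *Nptx1* (2194 and 346 kb) and *Nptx2* (91.8 and 96.0 kb).

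Of the 12 inducing cytokine and receptor genes 4 were IP, 1 AMB and 7 II, beside 17.1%, 2.96% and 56.6% of all protein-coding genes. Among genes under 10 kb the IP share was 9.22%, and no share is given for genes as long as the longer ones here. These counts were not tested. *Il1a* for interleukin-1 alpha had a LAD share of 49.6% in WT and 100% in KO. The receptor genes *Il1r1*, *Osmr* and *Lifr*, with spans of 91.1, 60.7 and 67.9 kb, had 0% in WT and 21.2%, 21.7% and 20.9% in KO LADs, and the transcription start of each lay outside LADs in both genotypes. These 3 genes were II at an overlap of 50% or by the transcription start, and *Il1r1* and *Osmr* also with DRs of at least 20 kb. The study lists *Lifr*, like *Apcs*, as recruited to the periphery with lower expression in its knockout. *Il1rap*, the accessory chain of the interleukin-1 receptor, was AMB, with 15.8% of its 148 kb span in WT-only and 28.3% in KO-only DRs. Of the II genes, the nearest LAD of *Il6* was 22.4 kb away in WT and 1.29 kb in KO, that of *Il6ra* 752 and 653 kb, and that of *Il6st*, the gp130 receptor gene, 62.1 and 93.6 kb. All 9 located genes of the signalling and transcription factor list were II, beside 56.6% of all protein-coding genes. Among them were the kinase genes *Jak1* (210 and 76.0 kb), *Jak2* (432 and 117 kb) and *Tyk2* (532 and 497 kb).

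Among 7 receptors and partners of the members, 3 were PP and 4 II, beside 17.9% and 56.6% of all protein-coding genes. The PP genes, each wholly in a LAD in both genotypes, were *Fpr2*, a formyl peptide receptor that binds serum amyloid A, *Cd163*, the macrophage receptor for haptoglobin-hemoglobin complexes, and the hemoglobin gene *Hbb-b1*. The high-density lipoprotein receptor gene *Scarb1* (218 and 188 kb), the Fc receptor gene *Fcgr1* (1049 and 685 kb) and the complement gene *C1qa* (5186 and 35.3 kb) were II.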

How the data were processed

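Per the methods of the study, Dam-methylated DNA was cut with *DpnI* and sequenced. The submitters' processing notes name BWA, limma and the build mm9, without versions. The authors segmented the ratio of Dam-LaminB1 to Dam only into LADs with DNAcopy and deposited 2 LAD and 2 DR lists, which hold positions only. Subtracting the LAD lists returned the DR lists exactly on 21 of 21 chromosomes.

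Genes were taken from the GENCODE annotation of NCBIM37, the same assembly as mm9, and classed by an overlap of at least 1 base between span and DR. Exons came from the coding transcript of greatest exonic length. Overlaps, distances, windows, motifs and 32-base words used Python 3.11.15 with numpy 2.4.6 and pandas 2.3.3, alignments used Biopython 1.88 and figures matplotlib 3.10.9. The classing was tested on simulated data with 0 errors in 500 spans. Positions are 1-based.

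The members and lists were chosen with earlier results of these data known. Named were all members, other genes in a DR or nearest LAD of a member, the nearest gene on each side of a locus, and, of the other acute phase genes, those of a class other than II and up to 3 II genes per list in list order. *Slamf8*, *Slamf9*, *Vsig8*, *Ambp*, *Phlpp2*, *Fga*, *Fgb*, *Fgg*, *Mbl2* and *Il1rn* were added after their values had been seen. Alternatives varied the overlap, the minimum DR and LAD length, the joining of LADs and the flank.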

Additional observations from a re-analysis of the deposited data

How the results depend on the processing

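Each genotype has 1 LAD list, so a value was counted as moved when it changed by more than 1.5 times. *Crp* and *Apcs* were IP at an overlap of 10% or 50%, by the transcription start, in the 100 kb centered on the gene, with differences of any length and with LADs joined across gaps of up to 10 kb. With DRs of at least 20 kb the number of IP members was 0, since the DRs at *Crp* and *Apcs* are shorter, and both then counted as II. With LADs joined across gaps of up to 50 kb, or of up to 20 kb, it was 0 as well and both were PP (2 members), with 100% of the *Crp* and *Apcs* spans in WT LADs at 50 kb. Joining across 10 and 20 kb was added after the data had been examined. In the 100 kb centered on the gene *Hp* became the 1 PI member. No difference in distance to the nearest LAD changed sign. With LADs of at least 20 kb these differences grew from -22.1 to -186 kb for *Saa1*, -208 kb for *Saa4* and -241 kb for *Saa3*, from -31.6 to -163 kb for *Saa2* and from 12.1 to 76.5 kb for *Hp*, while those of the *Orm* genes went from -218 and -207 to -183 kb, below *Saa1*, *Saa3* and *Saa4* in size.

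The difference in LAD share around a locus (KO minus WT, percentage points, 500 kb flanks) was 10.5 for the pentraxins, 22.1 for *Saa*, 20.0 for *Orm* and -4.54 for *Hp*. With 100 kb flanks it was 4.68 for the pentraxins, 0 for *Saa* and -13.2 for *Hp*. With flanks of 1 Mb it was 6.62, 13.0 and 8.93 for the pentraxins, *Saa* and *Orm*. With LADs of at least 20 kb it was 12 for *Orm* and -8.23 for *Hp*, and with LADs joined across 50 kb it was 31.2 and -0.0289.

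Of the other acute phase genes (5 IP, 1 PI, 1 AMB and 3 PP), 2 were IP and 0 AMB at an overlap of 50% or by the transcription start, and 3 were IP with DRs of at least 20 kb. With LADs joined across 50 kb *Ptx3* became PP and *Il6* IP, so the IP count was again 5. In the 100 kb centered on the gene 10 were IP, 3 PI, 2 AMB and 5 PP. No share over all protein-coding genes is given at these settings, for these genes or for the members. A change in count with the setting therefore has no background beside it. No paired analysis was possible because each genotype has 1 library per construct and the values come from no test. The files give no read numbers, so the precision of a border is unknown.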
